A study of Mus musculus with 16 samples.

Results

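A set of 10 microRNA (miRNA) names of the mouse Dlk1-Dio3 imprinted cluster were followed through a small RNA sequencing study of extracellular vesicles (EVs) and of the macrophages that received them. The members were chosen by name as rows of the deposited count tables, and they made up 10 of the 941 names in those tables. They were mmu-miR-493-5p, mmu-miR-127-3p and mmu-miR-434-3p from the upstream end of the cluster, and mmu-miR-379-5p, mmu-miR-411-5p, mmu-miR-382-5p, mmu-miR-541-5p, mmu-miR-409-3p, mmu-miR-412-5p and mmu-miR-410-3p from the downstream end. All 10 had reads in at least 1 of the 4 EV libraries, 4 had reads in every EV library, and 3 had a read in any of the 12 cell libraries.

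The Dlk1-Dio3 domain is an imprinted region, which means that each gene in it is transcribed mainly from the copy inherited from 1 parent. Its protein-coding genes Dlk1, Rtl1 and Dio3 are expressed from the paternal chromosome, and its long noncoding RNAs Meg3, Rian and Mirg, together with one of the largest miRNA clusters of mammals, from the maternal chromosome. In mice the cluster is best known from the embryo, the placenta and the brain. Muscle and connective tissue also express it, and it is not among the defining miRNAs of macrophages or hepatocytes. A miRNA guides the silencing machinery to messenger RNAs that pair with its seed, the stretch near its 5′ end.

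Serum Con A EVs came from blood of female BALB/c mice aged 8 to 9 weeks, drawn 9 h after an intravenous injection of concanavalin A (Con A) at 15 mg/kg. Con A, a lectin from jack beans, stimulates T cells and brings on liver inflammation in mice. Serum saline EVs came from mice of the same strain, sex and age given saline. RAW Con A EVs and RAW saline EVs were collected from the medium of RAW264.7 cells, a macrophage line from a male BALB/c mouse, kept for 24 h in EV-free medium with Con A at 25 µg/mL or with saline. The stock cells were grown with fetal bovine serum, and no source used here says whether the sera of several mice were pooled. The 12 cell libraries were RAW264.7 cells that received serum Con A EVs, RAW Con A EVs, RAW saline EVs or PBS, with 3 libraries each. EVs were given at 6e9 particles per mL for 8 h, and all 4 groups were then treated with Con A and harvested 16 h later. No cells received serum saline EVs, and whether replicate libraries were separate cultures is not stated, so p-values measure the spread between these libraries, which may be technical.

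Each kind of EV had 1 library, so EV values carry an exact 95% Poisson interval that covers counting error only, and no p-value is given for them. The reads carry no molecular identifiers, so they are not independent molecules. Libraries held 334285 miRNA reads in serum Con A EVs, 132130 in serum saline EVs, 134884 in RAW Con A EVs and 114791 in RAW saline EVs. A count of 0, taken as fewer than 3 reads, allows up to 8.97, 22.7, 22.2 and 26.1 CPM (counts scaled to a common total of miRNA reads) in these libraries, in the same order. The hepatocyte list of 6 miRNAs took 85.4% of the reads in serum Con A EVs and 23.8% in serum saline EVs, and 28.9% in RAW Con A EVs and 2.33% in RAW saline EVs. Liver miR-122-5p alone was 20.8% of the reads in the library labelled RAW Con A EVs and 0.353% in RAW saline EVs, while it lay between 8.99 and 266 CPM in the cell libraries. In this respect the RAW Con A library goes against its macrophage label, and the RAW saline library does so too, at lower levels. In RAW saline EVs miR-122-5p stood at 3528 CPM, and miR-148a-3p at 19078 CPM against 9.71 to 366 CPM in the cell libraries. There miR-192-5p (610 CPM) and miR-194-5p (95.8 CPM) lay within their range in the cell libraries. The list of macrophage miRNAs made up 4.05% of RAW Con A and 11.3% of RAW saline EV reads, of which miR-21a-5p alone was 2.79% and 10.4%. Its names did not move together. miR-21a-5p and both arms of miR-142a were lower in RAW Con A EVs. miR-155-5p (5.90-fold), miR-223-3p (2.84-fold, from 10 and 3 reads) and miR-146a-5p (1.45-fold) were higher. Every member value from RAW Con A EVs below rests on that 1 library.

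The mature sequences are shown with their seeds (bases 2 to 8) in capitals because members with 1 seed would share predicted targets. They are RefSeq sequences of GRCm38.p6, in order along the chromosome and 5′ to 3′, and all 10 members matched an entry. The other arm of the mir-434 hairpin, mmu-miR-434-5p, is no member and is shown because its reads accompany those of mmu-miR-434-3p.
mmu-miR-493-5p: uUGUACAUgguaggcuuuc
mmu-miR-127-3p: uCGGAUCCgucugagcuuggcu
mmu-miR-434-5p: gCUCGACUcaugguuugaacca
mmu-miR-434-3p: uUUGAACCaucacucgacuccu
mmu-miR-379-5p: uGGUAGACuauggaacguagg
mmu-miR-411-5p: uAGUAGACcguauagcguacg
mmu-miR-382-5p: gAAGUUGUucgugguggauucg
mmu-miR-541-5p: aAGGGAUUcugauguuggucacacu
mmu-miR-409-3p: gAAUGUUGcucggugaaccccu
mmu-miR-412-5p: uGGUCGACcagcuggaaaguaau
mmu-miR-410-3p: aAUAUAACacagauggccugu

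The 10 members had 10 distinct seeds. The nearest were those of mmu-miR-379-5p and mmu-miR-411-5p, which differ at 1 position, and those of mmu-miR-379-5p and mmu-miR-412-5p, which also differ at 1. Beyond the members, mmu-miR-410-3p shared its seed with 1 other name in the tables, and the other members shared theirs with none. The members were 19 to 25 bases long with a GC content of 38.1% to 59.1%, 6 from the 5p and 4 from the 3p arm of their hairpins. Each was 7 or 8 edits away from the nearest other mature sequence in the tables. The read counts are given by mouse name, and whether a read came from another species with the same mature sequence was not tested.

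In RefSeq all 10 lie on the plus strand of chromosome 12 between Dlk1 and Dio3, from the Mir493 hairpin at chr12:109580233-109580315 to the Mir410 hairpin at chr12:109743715-109743795 (GRCm38.p6). The sources used here do not give the build behind the deposited counts. The upstream group spans 14.4 kb beside Meg3 and within the span of Rtl1, the downstream group spans 34.7 kb up to and within Mirg, and 114 kb separate the groups. Mir127 and Mir434 lie antisense to Rtl1, and in mice miR-127-3p and both arms of miR-434 are known to match the Rtl1 transcript. Mir379 is the first and Mir410 the last hairpin of the downstream group, whose deletion in mice is known to disturb the metabolism of newborns.

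Together the members were rare in every EV library and differed widely between libraries. They summed to 15 reads in serum Con A EVs, 44.9 CPM (25.1 to 74.0), and to 105 reads in serum saline EVs, 795 CPM (650 to 962). They summed to 482 reads in RAW Con A EVs, 3573 CPM (3262 to 3907), and to 171 reads in RAW saline EVs, 1490 CPM (1275 to 1730). These sums were 0.00449%, 0.0795%, 0.357% and 0.149% of the reads of the 4 libraries, in that order. On the CPM scale RAW Con A EVs were thus highest and serum Con A EVs lowest, and the intervals of the 4 sums did not overlap. The order of the serum libraries depends on the scaling, since with the authors' divisors the sum was 9.0-fold higher in serum Con A than in serum saline EVs. In the same order of libraries, 5, 7, 8 and 8 of the 10 members had at least 1 read.

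A subset of 4 members was shared by serum and RAW EVs in all 4 libraries. mmu-miR-127-3p had 4 reads in serum Con A EVs and 20 in serum saline EVs, against 124 in RAW Con A EVs and 56 in RAW saline EVs, or 12.0, 151, 919 and 488 CPM. mmu-miR-379-5p had 5 reads in serum Con A EVs and 25 in serum saline EVs, against 89 in RAW Con A EVs and 43 in RAW saline EVs, or 15.0, 189, 660 and 375 CPM. In CPM both were lower in serum Con A than in serum saline EVs and highest in RAW EVs, but in the authors' deposited table of serum EVs both were 12.6-fold higher in serum Con A EVs. They lie in different groups of the cluster. mmu-miR-409-3p had 2 reads in serum Con A EVs and 5 in serum saline EVs, against 91 in RAW Con A EVs and 28 in RAW saline EVs, or 5.98, 37.8, 675 and 244 CPM. mmu-miR-382-5p had 1 read in serum Con A EVs and 16 in serum saline EVs, against 44 in RAW Con A EVs and 4 in RAW saline EVs, or 2.99, 121, 326 and 34.8 CPM. mmu-miR-382-5p was the only one of the 4 with more CPM in serum saline than in RAW saline EVs.

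A further 4 members had reads mainly or solely in RAW EVs. mmu-miR-412-5p had 0 reads in both serum libraries, against 62 (460 CPM) in RAW Con A EVs and 7 (61.0 CPM) in RAW saline EVs. mmu-miR-493-5p had 0 reads in both serum libraries, against 47 (348 CPM) in RAW Con A EVs and 6 (52.3 CPM) in RAW saline EVs. These come from opposite ends of the cluster, and their patterns over the libraries were alike. mmu-miR-411-5p had 0 reads in serum Con A EVs and 2 (15.1 CPM) in serum saline EVs, against 24 (178 CPM) in RAW Con A EVs and 26 (226 CPM) in RAW saline EVs. mmu-miR-410-3p had 0 reads in both serum libraries, against 1 in RAW Con A EVs and 1 in RAW saline EVs, or 7.41 and 8.71 CPM, too few to compare.

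The remaining 2 members had reads in serum EVs and none in RAW EVs. mmu-miR-541-5p had 3 reads (8.97 CPM) in serum Con A EVs and 26 (197 CPM) in serum saline EVs. mmu-miR-434-3p had 0 reads in serum Con A EVs and 11 (83.3 CPM) in serum saline EVs. In serum saline EVs mmu-miR-541-5p had the most reads of all members, while in RAW EVs both were below the 22.2 and 26.1 CPM that a count of 0 allows.

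**Figure D1:**
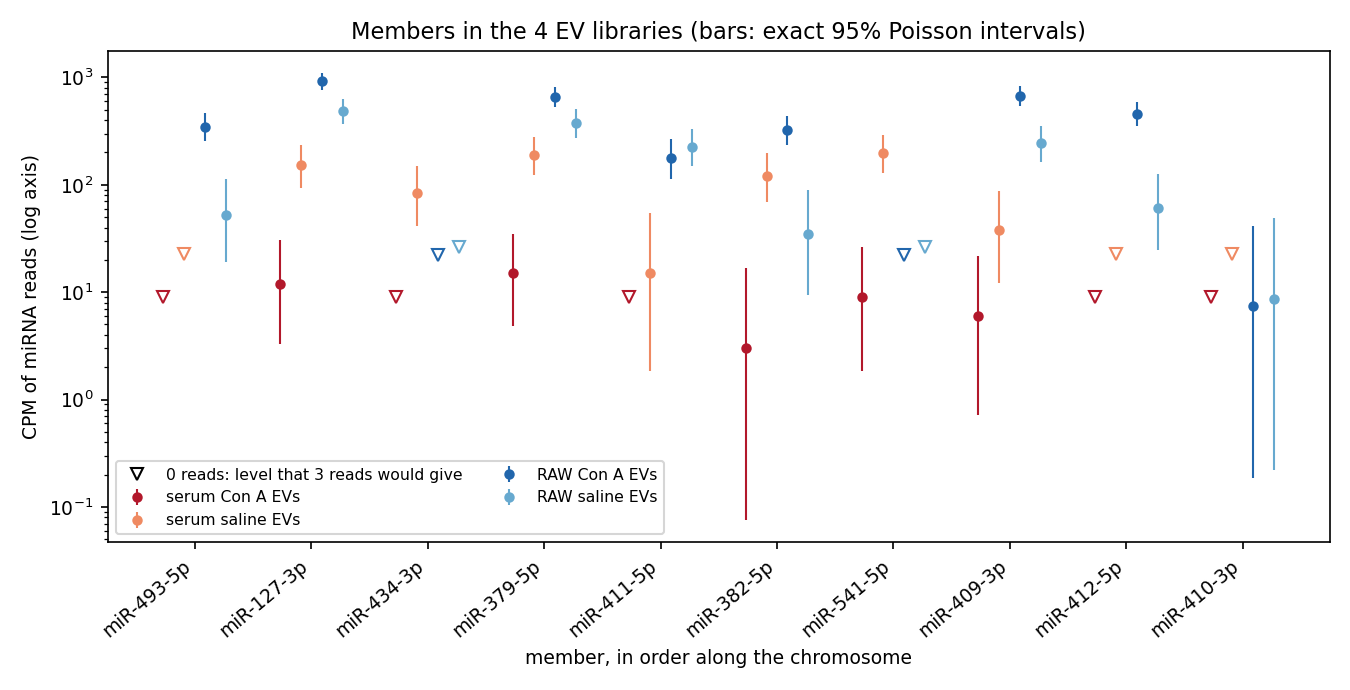
Level of each of the 10 members in the 4 EV libraries, in CPM of miRNA reads on a log axis, with members in order along the chromosome. Points are single libraries, bars are exact 95% Poisson intervals, and open triangles stand at the level of 3 reads where a member had 0 reads. mmu-miR-541-5p and mmu-miR-434-3p have points in serum libraries only, and mmu-miR-412-5p and mmu-miR-493-5p in RAW libraries only.

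Within RAW Con A EVs the order of member levels was mmu-miR-127-3p, mmu-miR-409-3p, mmu-miR-379-5p, mmu-miR-412-5p, mmu-miR-493-5p, mmu-miR-382-5p, mmu-miR-411-5p and mmu-miR-410-3p. The intervals of mmu-miR-409-3p (543 to 828 CPM) and mmu-miR-379-5p (530 to 812 CPM) overlapped almost fully, as did those of mmu-miR-493-5p (256 to 463 CPM) and mmu-miR-382-5p (237 to 438 CPM). In RAW saline EVs the order began with mmu-miR-127-3p (369 to 634 CPM) and mmu-miR-379-5p (271 to 505 CPM), whose intervals overlapped, followed by mmu-miR-409-3p and mmu-miR-411-5p. In serum saline EVs mmu-miR-541-5p (129 to 288 CPM), mmu-miR-379-5p (122 to 279 CPM), mmu-miR-127-3p (92.5 to 234 CPM) and mmu-miR-382-5p (69.2 to 197 CPM) led, and their intervals overlapped each other. In serum Con A EVs no member had more than 5 reads, and the order could not be read. Ranks among all names put mmu-miR-127-3p at 173 in serum Con A EVs and 146 in serum saline EVs, against 64 in RAW Con A EVs and 95 in RAW saline EVs. Ligation in library preparation favours some sequences, so an order between miRNAs is one of reads.

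The first comparison asked which members differed between EVs of Con A-treated and of saline-treated RAW264.7 cells. Summed over the 10, RAW Con A EVs held 2.40 times the CPM of RAW saline EVs (95% interval 2.01 to 2.87, counting error only, 1 library each). The upstream group had a ratio of 2.35 (1.75 to 3.19) and the downstream group one of 2.43 (1.95 to 3.05). Both ends of the cluster thus differed by the same amount within counting error.

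The member ratios were not equal. mmu-miR-382-5p was 9.36-fold higher in RAW Con A EVs (3.41 to 35.9), mmu-miR-412-5p 7.54-fold (3.45 to 19.5) and mmu-miR-493-5p 6.67-fold (2.84 to 19.1). mmu-miR-409-3p was 2.77-fold higher (1.79 to 4.39), mmu-miR-127-3p 1.88-fold (1.36 to 2.63) and mmu-miR-379-5p 1.76-fold (1.21 to 2.60). mmu-miR-411-5p, which follows Mir379 in the cluster, had a ratio of 0.786 with an interval from 0.432 to 1.42 that includes 1. The intervals of mmu-miR-382-5p, mmu-miR-412-5p and mmu-miR-493-5p lay above those of mmu-miR-127-3p and mmu-miR-379-5p. That of mmu-miR-411-5p lay below those of mmu-miR-382-5p, mmu-miR-412-5p, mmu-miR-493-5p and mmu-miR-409-3p.

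Among the 6 members with at least 50 reads over both libraries, 3 (mmu-miR-409-3p, mmu-miR-412-5p and mmu-miR-493-5p) were at least 2-fold higher in RAW Con A EVs and 0 were at least 2-fold lower. These 3 passed the minimum mainly through RAW Con A EVs, with 91, 62 and 47 reads there and 28, 7 and 6 in RAW saline EVs. The minimum thus favoured higher members, in this count and in the member median. mmu-miR-382-5p had 48 reads over both and was below that minimum. Over all 134 names with that many reads, 32 (23.9%) were at least 2-fold higher and 39 at least 2-fold lower. The median log2 ratio was 1.19 over the 6 members and -0.16 over the 134 names. In the authors' deposited table of RAW EVs, where each count is divided by 1 number per library, the ratio was 1.80 for mmu-miR-127-3p, 7.20 for mmu-miR-412-5p and 8.94 for mmu-miR-382-5p, and 0.75 for mmu-miR-411-5p. The level of liver miR-122-5p was 59.0-fold higher in RAW Con A EVs, and its part in the member ratios was not tested. With the 6 hepatocyte miRNAs left out of both totals the summed member ratio was 3.29 (2.76 to 3.95). Of the hepatocyte list, miR-122-3p and miR-802-5p were at 0 in both RAW libraries. The muscle list stood at 334 CPM in RAW Con A EVs (2 of 7 names at 0) and 192 CPM in RAW saline EVs (3 of 7 at 0), and the stromal list at 2239 CPM (0 of 5) and 1368 CPM (1 of 5). For both RAW libraries the part of such tissues in the member reads was not tested either.

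The second comparison asked how the members differed between serum EVs of Con A-injected and of saline-injected mice. Scaled to total miRNA reads, the sum of the 10 was 17.7-fold lower in serum Con A EVs, a ratio of 0.0565 (0.0305 to 0.0974). This value depends on the scaling. Of all 170 names with at least 20 reads over both serum libraries, 142 (83.5%) were at least 2-fold lower in serum Con A EVs, where miR-122-5p and miR-148a-3p took 39.2% and 42.6% of the reads, against 9.95% and 12.0% in serum saline EVs. The median log2 ratio of the 170 was -2.49. With the 6 hepatocyte miRNAs left out of both totals the summed members were 3.39-fold lower (ratio 0.295, 0.160 to 0.510). In the authors' deposited table of serum EVs, where serum Con A counts are divided by 2 and serum saline counts by 126, the direction turned, and the 5 members listed there were 3.94-fold to 25.2-fold higher in serum Con A EVs. What these divisors count is not stated.

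No member reached 50 reads over both serum libraries. The 3 with at least 20 reads, mmu-miR-127-3p, mmu-miR-379-5p and mmu-miR-541-5p, were all at least 2-fold lower in CPM, a share near the background of 83.5%. Each of the 3 reached 20 reads through serum saline EVs alone, so the minimum favoured lower members. mmu-miR-127-3p and mmu-miR-379-5p were both 12.6-fold lower, with ratios of 0.0791 (0.0196 to 0.236 and 0.0236 to 0.210). mmu-miR-541-5p had a ratio of 0.0456 (0.00884 to 0.149). mmu-miR-382-5p had a ratio of 0.0247 (0.000589 to 0.159) from 1 read against 16, and mmu-miR-409-3p one of 0.158 (0.0151 to 0.966) from 2 reads against 5. mmu-miR-434-3p was at least 9.28-fold lower, with 3 reads set as its limit in serum Con A EVs. The upstream group had a ratio of 0.0510 (0.0131 to 0.144) and the downstream group one of 0.0588 (0.0281 to 0.111), so no difference between the ends of the cluster was detectable at this depth.

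Other lists were lower too on the CPM scale. The ratio of serum Con A to serum saline EVs was 0.0376 for the stromal list, 0.0651 for the muscle list, 0.160 for the neural and endocrine list, 0.175 for the erythrocyte list and 0.225 for the macrophage list, and 3.59 for the hepatocyte list. Of the macrophage list, miR-155-5p (2.20) and miR-146a-5p (1.25) were higher in serum Con A EVs and the other names lower. The summed members, at 0.0565, lay between the stromal and the muscle list. The muscle list stood at 159 CPM in serum Con A EVs (4 of 7 names at 0, miR-133a-3p among them) and 2437 CPM in serum saline EVs (1 of 7). The stromal list stood at 565 CPM in serum Con A EVs (1 of 5 names at 0) and 15046 CPM in serum saline EVs (0 of 5). The part of these tissues in the member levels was not tested.

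**Figure D2:**
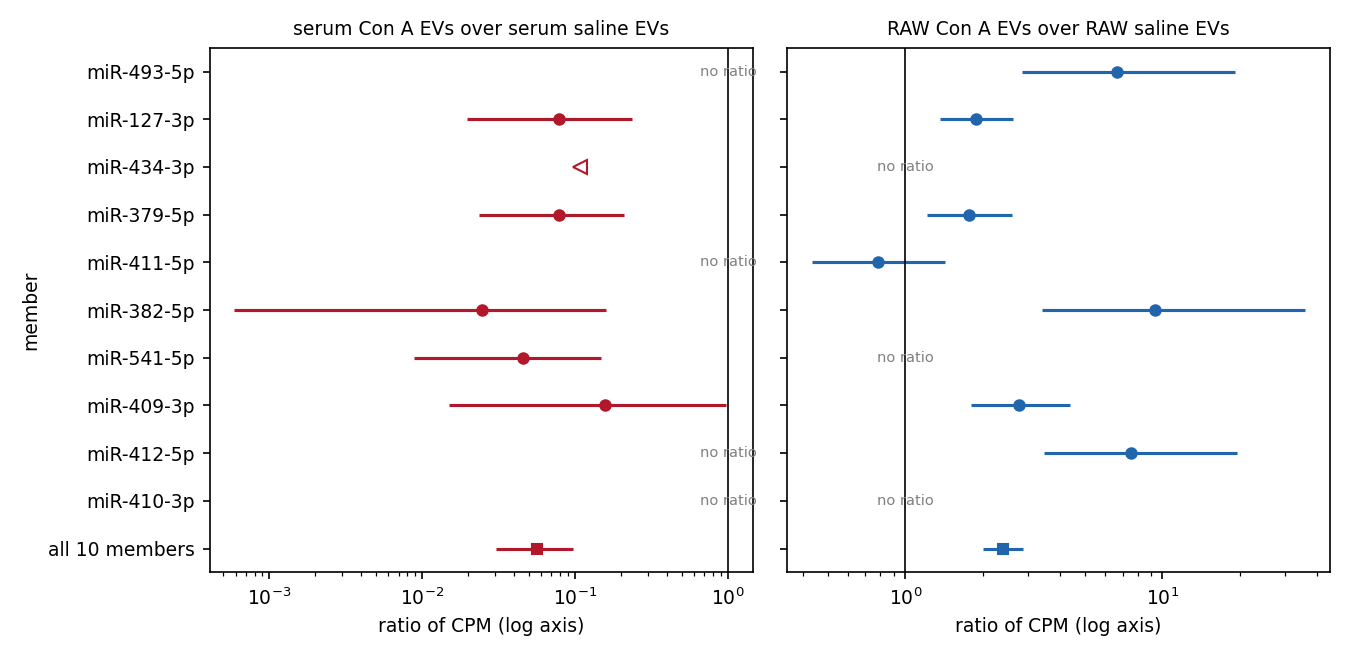
Ratio of CPM of each member and of their sum, serum Con A over serum saline EVs on the left and RAW Con A over RAW saline EVs on the right, on log axes. Points are ratios of 1 library to 1 library, and bars are exact 95% intervals for counting error. The open triangle is the ratio that 3 reads in place of 0 would give, and "no ratio" marks members with too few reads. On this scale the 10 members summed to a ratio of 0.0565 in serum and 2.40 in RAW EVs, and the serum side turned to higher under the authors' divisors.

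The third comparison set serum against RAW EVs. Without Con A, the summed members had a ratio of 0.533 (0.414 to 0.684) in serum saline over RAW saline EVs. On the CPM scale this sum hid opposite differences. mmu-miR-541-5p was at least 7.53-fold higher in serum saline EVs, mmu-miR-434-3p at least 3.19-fold higher, and mmu-miR-382-5p 3.48-fold higher (1.12 to 14.3). mmu-miR-127-3p had a ratio of 0.310 (0.176 to 0.525), mmu-miR-379-5p of 0.505 (0.296 to 0.846), mmu-miR-409-3p of 0.155 (0.0468 to 0.407) and mmu-miR-411-5p of 0.0668 (0.00769 to 0.267). mmu-miR-412-5p was at least 2.69-fold lower and mmu-miR-493-5p at least 2.30-fold lower in serum saline EVs. The authors' divisors, 126 for serum saline and 13 for RAW saline EVs, were not applied to these ratios and would lower all of them. In the authors' deposited values mmu-miR-382-5p was lower in serum saline (0.127) than in RAW saline EVs (0.308), so its direction turned. The ratios above hold on the CPM scale alone.

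In CPM both directions occurred within each group of the cluster. Of the 2 members with at least 50 reads over both libraries, mmu-miR-127-3p was at least 2-fold lower and mmu-miR-379-5p was not, beside 43 of 144 names (29.9%) that were lower and 53 that were higher, with a median log2 ratio of 0.18. Here mmu-miR-127-3p reached 50 reads through RAW saline EVs alone. Over the 38 other cluster names the sum in CPM did not differ beyond counting error, at a ratio of 1.01 (0.777 to 1.32).

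With Con A, the summed members had a ratio of 0.0126 (0.00697 to 0.0209) in serum Con A over RAW Con A EVs, a 79.6-fold lower CPM. All 4 members with at least 50 reads over both (mmu-miR-127-3p, mmu-miR-379-5p, mmu-miR-409-3p and mmu-miR-412-5p) were at least 2-fold lower in serum Con A EVs, beside 85 of 120 names (70.8%) with a median log2 ratio of -2.05. Each of the 4 reached 50 reads through RAW Con A EVs alone, so the minimum favoured members lower in serum Con A EVs. mmu-miR-127-3p had a ratio of 0.0130 (0.00349 to 0.0342) and mmu-miR-379-5p of 0.0227 (0.00718 to 0.0549). mmu-miR-412-5p was at least 51.2-fold lower, mmu-miR-493-5p at least 38.8-fold lower and mmu-miR-411-5p at least 19.8-fold lower. With the 6 hepatocyte miRNAs left out of both totals the sum was 16.3-fold lower. In the authors' deposited values mmu-miR-127-3p stood at 2.0 in serum Con A and 7.75 in RAW Con A EVs, and mmu-miR-379-5p at 2.5 and 5.56. Both were lower in serum Con A EVs there too, by a smaller factor than in CPM. This contrast differs in the source, the animal and the route of Con A at once, and these cannot be told apart.

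The members' own shares show the change of composition without any scaling between libraries. mmu-miR-127-3p made up 26.7% of member reads in serum Con A EVs and 19.0% in serum saline EVs, and 25.7% in RAW Con A EVs and 32.7% in RAW saline EVs. mmu-miR-379-5p made up 33.3% in serum Con A EVs and 23.8% in serum saline EVs, and 18.5% in RAW Con A EVs and 25.1% in RAW saline EVs. The serum Con A shares rest on 15 reads in all. mmu-miR-541-5p made up 20.0% in serum Con A EVs and 24.8% in serum saline EVs, and 0 in RAW EVs. mmu-miR-412-5p made up 12.9% in RAW Con A EVs and 4.09% in RAW saline EVs, and mmu-miR-493-5p 9.75% and 3.51%. mmu-miR-411-5p made up 4.98% of member reads in RAW Con A EVs and 15.2% in RAW saline EVs. mmu-miR-127-3p and mmu-miR-379-5p thus had reads in every library, while mmu-miR-541-5p, mmu-miR-412-5p and mmu-miR-493-5p had theirs in 1 source alone.

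A wider list of the cluster, with both arms of 59 hairpins, had 48 names in the tables. RefSeq placed 44 of them between Dlk1 and Dio3 and had no entry for the other 4. The list summed to 30 reads (89.7 CPM) in serum Con A EVs and 232 (1756 CPM) in serum saline EVs, and to 731 (5419 CPM) in RAW Con A EVs and 280 (2439 CPM) in RAW saline EVs. Its ratio of Con A to saline was 0.0511 (0.0337 to 0.0750) in serum and 2.22 (1.93 to 2.56) in RAW EVs. Members held 15 of the cluster's 30 reads in serum Con A EVs and 45.3% in serum saline EVs, and 65.9% in RAW Con A EVs and 61.1% in RAW saline EVs. Of the 38 names that are no members, 11 had reads in serum EVs alone, 13 in RAW EVs alone and 14 in both, and 28 of the 38 had at most 10 reads over the 4 libraries.

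The other arms of most member hairpins were rarer than the members. mmu-miR-434-5p was not, with 7 reads (20.9 CPM) in serum Con A EVs and 44 (333 CPM) in serum saline EVs, and 0 in both RAW libraries. It was thus present where mmu-miR-434-3p was and exceeded it in both serum libraries, at a ratio of serum Con A to serum saline EVs of 0.0629 (0.0239 to 0.141). In CPM it was at least 12.7-fold higher in serum saline than in RAW saline EVs. Both arms of the mir-434 hairpin were therefore not detected in RAW EVs at this depth, although mmu-miR-127-3p from the neighbouring hairpin was the most abundant member there. mmu-miR-382-3p had 1 read in serum Con A and 0 in serum saline EVs, and 13 in RAW Con A and 10 in RAW saline EVs. In RAW saline EVs, at 87.1 CPM, it stood above mmu-miR-382-5p at 34.8 CPM, from 10 reads against 4. The interval of mmu-miR-382-5p there, 9.49 to 89.2 CPM, includes 87.1. The ratio of mmu-miR-382-3p in RAW Con A to RAW saline EVs was 1.11 (0.448 to 2.82), against 9.36 (3.41 to 35.9) for mmu-miR-382-5p from the same hairpin. The other arms of mir-127, mir-379, mir-411 and mir-409 had at most 3 reads in any EV library.

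The 8 further cluster names with the most reads varied among themselves. mmu-miR-381-3p had 1 read in serum Con A and 29 in serum saline EVs, against 91 in RAW Con A and 36 in RAW saline EVs, with a RAW Con A to RAW saline ratio of 2.15 (1.45 to 3.26). mmu-miR-369-3p, next to Mir412 and Mir410, had 0 reads in serum Con A and serum saline EVs, against 48 in RAW Con A and 14 in RAW saline EVs, a ratio of 2.92 (1.58 to 5.73). mmu-miR-495-3p had 27 reads in RAW Con A and 6 in RAW saline EVs, a ratio of 3.83 (1.55 to 11.3). mmu-miR-494-3p had 16 in each, a ratio of 0.851 (0.398 to 1.82), and so stood beside mmu-miR-411-5p as a name with no difference beyond counting error. mmu-miR-300-3p had 0 reads in serum Con A and 7 in serum saline EVs, against 13 in RAW Con A and 0 in RAW saline EVs. mmu-miR-323-3p had 0 reads in serum Con A and 3 in serum saline EVs, against 12 in RAW Con A and 2 in RAW saline EVs. mmu-miR-543-3p had reads in RAW EVs alone, 3 in RAW Con A and 8 in RAW saline EVs. mmu-miR-134-5p, known in rat neurons for its control of dendritic spines, had 2 reads in serum Con A and 12 in serum saline EVs, against 0 in RAW Con A and 1 in RAW saline EVs. Among the 8 cluster names with at least 50 reads over both RAW libraries, 5 were at least 2-fold higher in RAW Con A EVs and 0 lower, beside 32 (23.9%) higher and 39 lower of all 134 names. Those 5 passed the minimum mainly through RAW Con A EVs, so it favoured higher names.

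**Figure D3:**
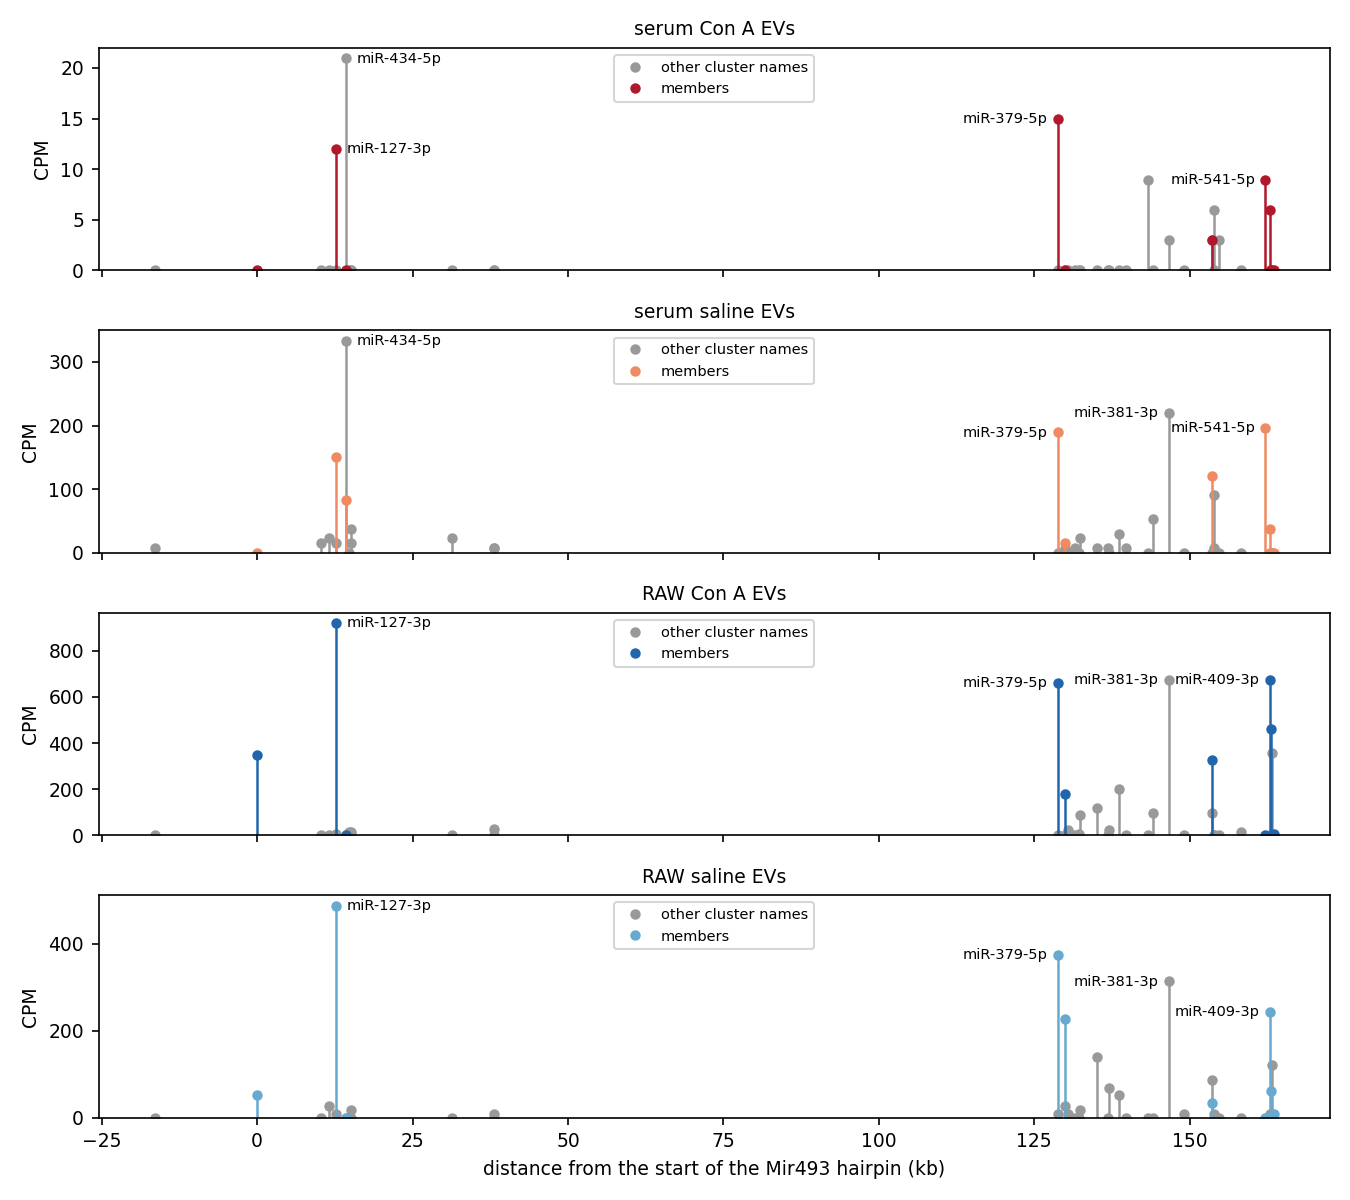
CPM of every located cluster name in each EV library against its distance from the start of the Mir493 hairpin, in kb, with members coloured and other cluster names in grey. Each panel has its own linear axis from 0. mmu-miR-434-5p stands highest in both serum panels and mmu-miR-127-3p, from the hairpin beside it, in both RAW panels.

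Outside the cluster, the names whose share of CPM over the 4 EV libraries was nearest to that of the summed members were miR-378a-3p, let-7a-5p, miR-221-3p, miR-182-5p and miR-27b-3p. Their Euclidean distances were 0.104, 0.112, 0.124, 0.127 and 0.136 over the 4 libraries, among 134 names with at least 100 reads. The summed members had 0.760% of their summed CPM in serum Con A EVs, 13.5% in serum saline EVs, 60.5% in RAW Con A EVs and 25.2% in RAW saline EVs. By the same measure mmu-miR-381-3p of the cluster was at 0.0676, nearer than any of the 5. These profiles hold on the CPM scale alone, since the order of the serum libraries turned under the authors' divisors.

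The last question was whether the macrophages held the members and whether given EVs altered them. The 12 cell libraries held 174510 to 403332 reads, and in each a count of 0 allows 7.44 to 17.2 CPM. The 10 members together had 3 reads among 3399228. mmu-miR-127-3p had 1 read in cells given RAW saline EVs (replicate 3), and mmu-miR-409-3p and mmu-miR-379-5p had 1 read each in cells given RAW Con A EVs (replicates 2 and 3). Cells given serum Con A EVs had 0 member reads in all 3 libraries, and so did cells given PBS. mmu-miR-412-5p, mmu-miR-493-5p, mmu-miR-411-5p, mmu-miR-382-5p, mmu-miR-541-5p, mmu-miR-434-3p and mmu-miR-410-3p had 0 reads in all 12.

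The summed members in RAW EVs stood far above this level. With 3 reads over the 3 PBS libraries as the limit, the CPM of RAW Con A EVs was at least 993-fold higher than in PBS cells and that of RAW saline EVs at least 414-fold higher. The PBS cells had been treated with Con A, and the cultures that released the EVs have no library here. Of the 134 names with at least 50 reads over both RAW EV libraries, 8 had at most 10 reads over the 12 cell libraries, and all 8 were cluster names. They were the 6 members mmu-miR-127-3p, mmu-miR-379-5p, mmu-miR-409-3p, mmu-miR-411-5p, mmu-miR-412-5p and mmu-miR-493-5p, with mmu-miR-381-3p and mmu-miR-369-3p. This limit of 10 reads was chosen after the values were seen. The next name, miR-143-3p of the stromal list, had 16 reads in cells, and 230 in RAW Con A and 124 in RAW saline EVs. That list was not absent from cells as a whole and stood at 505 to 949 CPM in the cell libraries. Of its other names, miR-199a-3p had 1606 and miR-199a-5p 707 reads in cells, while miR-145a-5p and miR-214-3p had 0. Where the EV reads of the members came from was not tested.

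**Figure D4:**
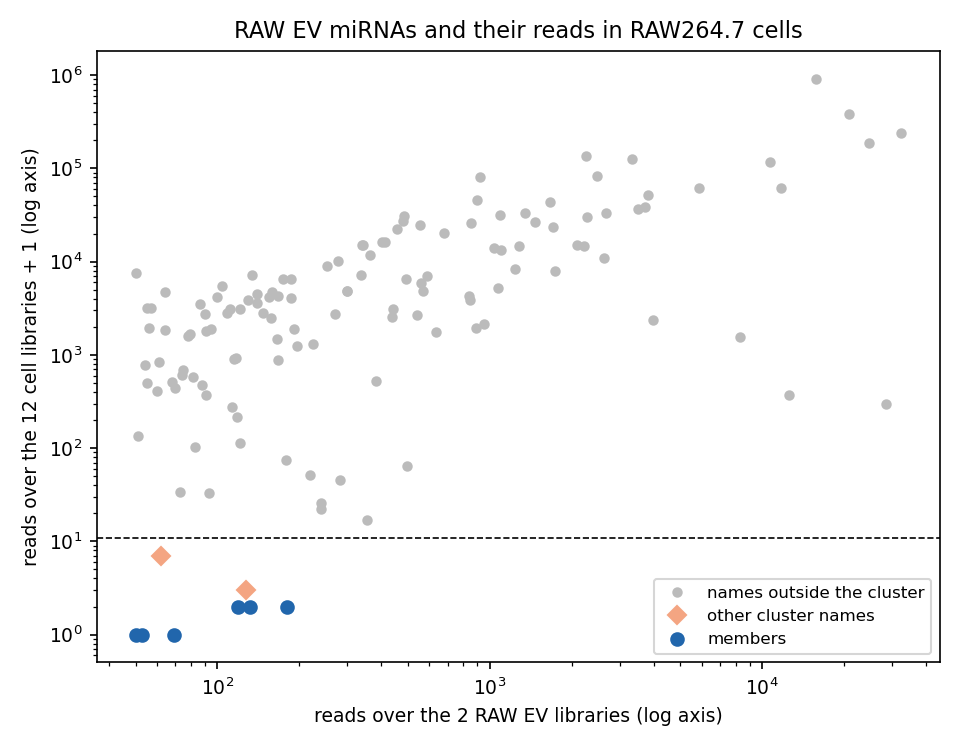
Reads over both RAW EV libraries against reads over the 12 cell libraries plus 1, on log axes, for the 134 names with at least 50 RAW EV reads. The dashed line stands at 10 cell reads, and the 8 points below it are 6 members and 2 other cluster names.

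No member passed the filter on low counts, so none was tested in the cells. Of the 229 names tested with edgeR's quasi-likelihood test and Benjamini-Hochberg adjustment, 49 (21.4%) were called in cells given serum Con A EVs against PBS, 26 (11.4%) in cells given RAW Con A EVs and 32 (14.0%) in cells given RAW saline EVs, 0 of them members. The 26 calls became 10 to 17 when any 1 of the 6 compared libraries was left out. With no filter, mmu-miR-127-3p, mmu-miR-379-5p and mmu-miR-409-3p entered the edgeR fit and none was called (0 of 3 at an unadjusted p under 0.05 in each comparison), with smallest adjusted p-values over the 3 of 1, 0.749 and 0.687 in the same order of comparisons. At 0 or 1 read per library a difference in the members between cell groups was not detectable at this depth.

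Over the wider list, 7 names had 14 reads in cells. The 3 libraries of cells given serum Con A EVs had 0, 0 and 0 of them, those given RAW Con A EVs 0, 4 and 3, those given RAW saline EVs 3, 1 and 2, and those given PBS 0, 0 and 1. The 6 libraries of cells given RAW EVs thus held 13 of the 14 reads, in 5 of 6 libraries, and the other 6 libraries held 1. mmu-miR-369-3p had 6 of the 14 reads, mmu-miR-381-3p and mmu-miR-495-3p had 2 each, and mmu-miR-433-3p and the 3 detected members 1 each. At 0 to 4 reads per library these counts are too few to compare groups, and how many of all names split alike was not computed. Whether such reads lay inside the cells or in EVs still attached to them was not tested.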

How the data were processed

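Small RNA libraries of 12 RAW264.7 cell samples and 4 EV samples were used, grouped by their titles, and 0 sample columns were left unmatched. Per the labels' protocols, the NEBNext small RNA kit and a MiSeq giving single reads were used. Raw counts in the authors' tables are whole reads for each mature miRNA name. For EVs the authors also deposited signal values, each found on testing to be a raw count over a divisor that is constant within a library (2 for serum Con A, 126 for serum saline, 16 for RAW Con A and 13 for RAW saline EVs). These tables held 276 names for serum and 319 names for RAW EVs. The tools listed, per the submitters' processing notes, include edgeR with no version. Aligner, annotation and build were not stated.

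From the counts, CPM used the total of miRNA reads per library. EV ratios carry exact intervals from the binomial split of reads (Python 3.11.15, SciPy 1.17.1). A member at 0 was set to 3 reads for a ratio, which leaves out the counting error of the other library. Cells were tested with edgeR 4.0.16 in R 4.3.3 (filterByExpr, TMM, quasi-likelihood test, 12 libraries in 1 fit, adjusted p under 0.05), after a check on simulated data. The members and lists were chosen with earlier results of these data known. Named beside the 10 members are the other arms of their hairpins, the 8 further cluster names with the most EV reads, and the 5 outside names nearest in profile. Alternatives were TMM and upper-quartile scaling, totals without the 10 most abundant or the 6 hepatocyte miRNAs, the authors' divisors, other minimum reads, DESeq2 1.42.0, no filter, a replicate block and leaving out libraries.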

Additional observations from a re-analysis of the deposited data

Results flagged for a closer look

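The ratio of Con A to saline had opposite directions in serum and RAW EVs for 4 members and for the sum of all 10, on the CPM scale. The difference between the 2 ratios was not tested, since each rests on 1 library per group. How many of all names had opposite directions was not computed. Of the 170 names with at least 20 reads over both serum libraries, 83.5% were at least 2-fold lower in serum Con A EVs. The count of 4 thus cannot be read as particular to the members. With upper-quartile factors the serum ratio of mmu-miR-409-3p, from 2 reads against 5, was 1.0. For mmu-miR-127-3p the log2 ratio was -3.66 in serum and 0.91 in RAW EVs, and for mmu-miR-379-5p it was -3.66 and 0.82. For mmu-miR-382-5p it was -5.34 in serum and 3.23 in RAW EVs, and for mmu-miR-409-3p -2.66 and 1.47. For the 10 members summed it was -4.15 in serum and 1.26 in RAW EVs. In serum, the authors' divisors turn all 5 of these values to higher in Con A EVs, and then the directions are the same in serum and RAW EVs.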

How the results depend on the processing

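Of the alternatives for summed ratios and counts, 41 stayed within the main ratio's counting interval or within 1.5 times the main count, 26 moved beyond and 1 reversed. The log2 ratio of the summed members for serum Con A over serum saline EVs (-4.15) was -1.98 with TMM factors, -1.49 with upper-quartile factors, -1.69 without the 10 most abundant miRNAs, -1.76 without the 6 hepatocyte miRNAs and 3.17 with the authors' divisors. The last 2 settings were chosen after seeing the data. Under those divisors mmu-miR-127-3p and mmu-miR-379-5p were at 3.66, mmu-miR-382-5p at 1.98, mmu-miR-541-5p at 2.86 and mmu-miR-409-3p at 4.66. The RAW Con A over RAW saline sum (1.26) was 1.74 with upper-quartile factors and 1.72 without hepatocyte miRNAs. The serum saline over RAW saline sum (-0.91) was -1.38 without the 10 most abundant and -0.47 over the wider list. The serum Con A over RAW Con A sum (-6.32) was -4.45, -4.13, -4.18 and -4.03 with TMM, upper-quartile, without the 10 most abundant and without hepatocyte miRNAs. Members past 2-fold for serum, all lower, numbered 3 of 3 at a minimum of 20 reads (83.5% of all names lower) and 6 of 7 with no minimum, with 0 tested at 50 reads. For serum saline over RAW saline they numbered 5 of 6 at 20 reads (2 higher, 3 lower, beside 37.8% and 31.1% of all names), 8 of 10 with no minimum (3 higher, 5 lower) and 2 of 2 with TMM, against 1 of 2. For serum Con A over RAW Con A, all lower, they numbered 7 of 7 at 20 reads (69.8% of all names lower) and 7 of 9 with no minimum, against 4 of 4. The share of all names past 2-fold was not computed with no minimum or with TMM factors. Member counts under those settings thus have no background and cannot be read as particular to the members. A lower minimum tests more members, and the cause of the other shifts was not tested.

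In cells, calls for RAW Con A EVs against PBS (26) were 16 with no filter and 10 to 17 with any 1 of the 6 compared libraries left out, lowest without RAW Con A EVs replicate 3. Those for serum Con A EVs (49) were 33 to 48 and those for RAW saline EVs (32) 23 to 35. With the replicate block, calls were 50, 23 and 34 for serum Con A, RAW Con A and RAW saline EVs. After each group's mean was subtracted per miRNA, deviations of same-numbered libraries of an EV group and PBS had correlations of -0.211 to 0.202. No pairing by number was thus seen. Depth limits every serum member, at 26 reads or fewer per library.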
